A study of Homo sapiens with 8 samples.

Results

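The HOX gene clusters were examined for the replication origins they hold, in WT HCT116 cells and in cells without an ORC subunit. A HOX origin was any mapped origin that overlapped, by 1 bp or more, the gene body of a listed HOX gene plus 5 kb on either side (GENCODE release 44, hg38). The 38 listed genes lie in 4 clusters: 10 in HOXA (chr7:27095354-27205091), 10 in HOXB (chr17:48523526-48733750), 9 in HOXC (chr12:53933831-54061030), and 9 in HOXD (chr2:176087721-176195907), and these spans include the 5 kb at either end. When overlapping origins of the 4 cell lines were joined, 47 of 56863 origins in the series were HOX origins. By line, HOX windows held 36 of 30197 origins in WT, 29 of 33535 in *ORC1Δ* cells, 37 of 37813 in *ORC2Δ* cells, and 40 of 41332 in *ORC5Δ* cells. Each of these 47 origins is named here by the nearest start site of a HOX canonical transcript and the distance of its midpoint from it, with a plus sign for downstream and a minus sign for upstream.

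The cells are HCT116, an epithelial colon cancer line, in the p53−/− form, which all 4 lines share. WT carries no ORC deletion, and *ORC1Δ*, *ORC2Δ*, and *ORC5Δ* (labelled ORC1KO, ORC2KO, and ORC5KO) were made from p53−/− cells by CRISPR–Cas9. Short nascent strands, the new DNA made next to a start of replication, were size-selected, freed of other DNA with lambda exonuclease, and sequenced (SNS-seq) from 2 replicates of each line, 8 samples in all. Origin lists held positions only, and the 3 count tables merged the replicates of a line, so that each origin had 1 WT and 1 knockout value per table and no comparison between lines has a replicate error or a test. WT and a knockout line had 6416892 to 6878409 and 6691088 to 8523971 reads per table, and all 3 tables use the WT reads, so the 3 comparisons are not independent. Intervals on read values below are 95% and cover counting error only, which is too narrow where reads are copies of one molecule. HOX transcription was not measured in these samples.

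ORC, the origin recognition complex, helps to load the MCM2–7 helicase at sites where replication may start. HOX genes encode homeodomain transcription factors that set position along the body axis, and within a cluster their order on the chromosome follows the order of their expression from head to tail. Paralogue groups 1 to 3 act in anterior, 4 to 8 in central, and 9 to 13 in posterior regions. The clusters are short, rich in CpG islands, and crowded with overlapping coding and noncoding transcripts, and Polycomb proteins keep them silent in many cell types.

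The strongest WT origins of HOXA, HOXB, and HOXD, by the highest WT read value in any table, are shown first, each by its most G-rich 100 bases outside annotated UTRs. All sequences here are from hg38 and run 5′ to 3′ on the strand given, which is the G-rich one, with runs of 3 or more G in capitals.
HOXA5 +1.10 kb, chr7:27142319-27142418, minus strand: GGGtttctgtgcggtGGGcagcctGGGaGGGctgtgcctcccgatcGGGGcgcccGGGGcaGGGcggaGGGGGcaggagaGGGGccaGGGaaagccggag
HOXB3 +5.31 kb, chr17:48584862-48584961, minus strand: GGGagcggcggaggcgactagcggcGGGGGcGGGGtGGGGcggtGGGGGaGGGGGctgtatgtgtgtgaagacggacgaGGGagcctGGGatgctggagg
HOXD4 +0.84 kb, chr2:176152228-176152327, plus strand: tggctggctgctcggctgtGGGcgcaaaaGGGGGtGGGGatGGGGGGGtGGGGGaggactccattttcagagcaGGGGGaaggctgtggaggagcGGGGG
These 3 stretches held 7 to 10 G runs each. The HOXA5 +1.10 kb origin overlapped a coding exon of HOXA5, HOXB3 +5.31 kb lay in an intron of HOXB3, and HOXD4 +0.84 kb overlapped a coding exon of HOXD4. The printed stretches need not lie within these exons. The search string GGG, on either strand, was found in all 36 WT HOX origins and in 99.9% of all 30197 WT origins, so its presence did not set HOX origins apart. A G4Hunter score, which rises with the length of G runs and falls with C runs, reached the study's threshold for a G-quadruplex motif in a window of 25 bases in 36 of 36 WT HOX origins against 91.1% of all WT origins.

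HOX clusters were dense in origins in all 4 lines. HOX windows held 7.75 origins per 100 kb in WT, 6.24 in *ORC1Δ* cells, 7.97 in *ORC2Δ* cells, and 8.61 in *ORC5Δ* cells. The same windows around all 20033 protein-coding genes held 1.42, 1.53, 1.73, and 1.90 per 100 kb, so that HOX windows were 5.46, 4.08, 4.60, and 4.53 times as dense. HOX genes are short, with a median body of 4.22 kb against 27.5 kb for all coding genes. At least 1 origin lay in the window of 25 of the 38 HOX genes in WT (65.8%), 26 in *ORC1Δ* cells, 29 in *ORC2Δ* cells, and 30 in *ORC5Δ* cells, against 43.8%, 45.6%, 49.0%, and 51.5% of all coding genes. HOX windows overlap, so 1 origin can count for several genes. By gene body alone the HOX shares were 55.3%, 44.7%, 60.5%, and 57.9%, against 36.9%, 38.1%, 41.4%, and 43.9% of all coding genes. Over the genome each knockout list was longer than the WT list, while *ORC1Δ* cells had the fewest HOX origins of the 4 lines. This was not particular to HOX origins. Origins at CpG islands over the genome were also fewest in *ORC1Δ* cells, at 4209, against 5195 in WT, 5767 in *ORC2Δ*, and 6017 in *ORC5Δ* cells.

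**Figure D1:**
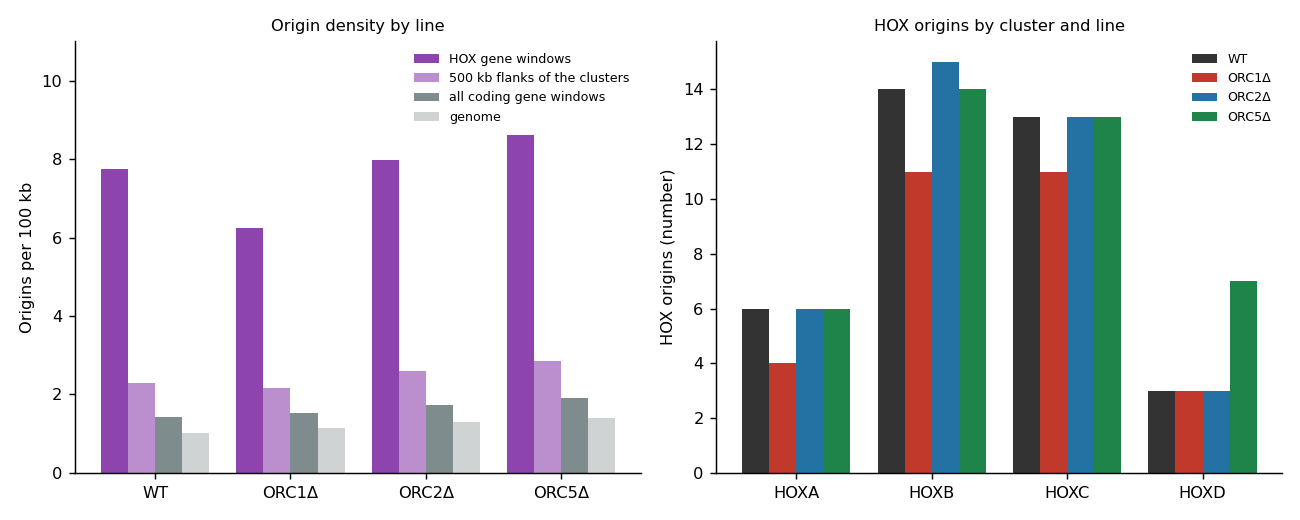
Left, origins per 100 kb (y axis) in HOX gene windows, the 500 kb flanks of the clusters, all coding gene windows, and the genome, for each of the 4 lines (x axis). Right, the number of HOX origins in each cluster, with 1 bar per line. Bars are counts from 1 list per line and have no error bar. HOX windows stood at 6.24 to 8.61 origins per 100 kb and the flanks at 2.17 to 2.85, and HOXD had 3 origins in each of WT, *ORC1Δ*, and *ORC2Δ* cells and 7 in *ORC5Δ* cells.

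Origin density differed between the clusters and between their flanks. In WT cells the HOXA span held 5.47 origins per 100 kb and its 500 kb flanks 0.6, a ratio of 9.11, from 6 and 6 origins. HOXD held 2.77 per 100 kb and its flanks 0.3, a ratio of 9.24, from 3 and 3 origins. HOXB (7.14 per 100 kb) and HOXC (10.2 per 100 kb) lay among flanks of 3.7 and 4.6 per 100 kb, which gave ratios of 1.93 and 2.22. On the *ORC1Δ*, *ORC2Δ*, and *ORC5Δ* lists the HOXA ratio was lower, at 4.05, 4.56, and 4.21, with 9 to 13 flank origins, and the HOXD ratio was 5.55, 9.24, and 16.2, with 3 to 5 flank origins. HOXB and HOXC had ratios of 1.84 to 2.70 on these lists. Over the 4 clusters together the ratio of spans to flanks was 2.90 in WT, 2.40 in *ORC1Δ* cells, 2.77 in *ORC2Δ* cells, and 2.91 in *ORC5Δ* cells.

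Within the clusters, origins were spread unevenly over the genes. Of the 47 origins, 7 lay in HOXA, 19 in HOXB, 14 in HOXC, and 7 in HOXD, at median distances between neighbours of 9.26, 4.58, 7.71, and 13.2 kb. By the nearest start, 13 belonged to the 7 anterior genes, 21 to the 15 central genes, and 13 to the 16 posterior genes. An origin lay in the window on all 4 lists for 4 of 7 anterior, 12 of 15 central, and 5 of 16 posterior genes. In HOXA every origin lay between HOXA2 and HOXA7, and the 47.9 kb from the last of them, at the HOXA7 start, to the end of the cluster held none in any line. The windows of HOXA9, HOXA10, HOXA11, and HOXA13, which pattern the posterior trunk and the limbs, were therefore empty on all 4 lists. HOXC12 and HOXD1 were the other 2 of the 6 genes with no origin in the window of any line. The HOX origin nearest to HOXD1 lay 12.93 kb upstream. The HOXC12 window lay in a stretch of 35.6 kb between the midpoints of neighbouring HOX origins near HOXC13 and HOXC11. The HOXC span held 14 origins in *ORC2Δ* and in *ORC5Δ* cells, 13 of them HOX origins, so this stretch was not free of origins in those lines.

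**Figure D2:**
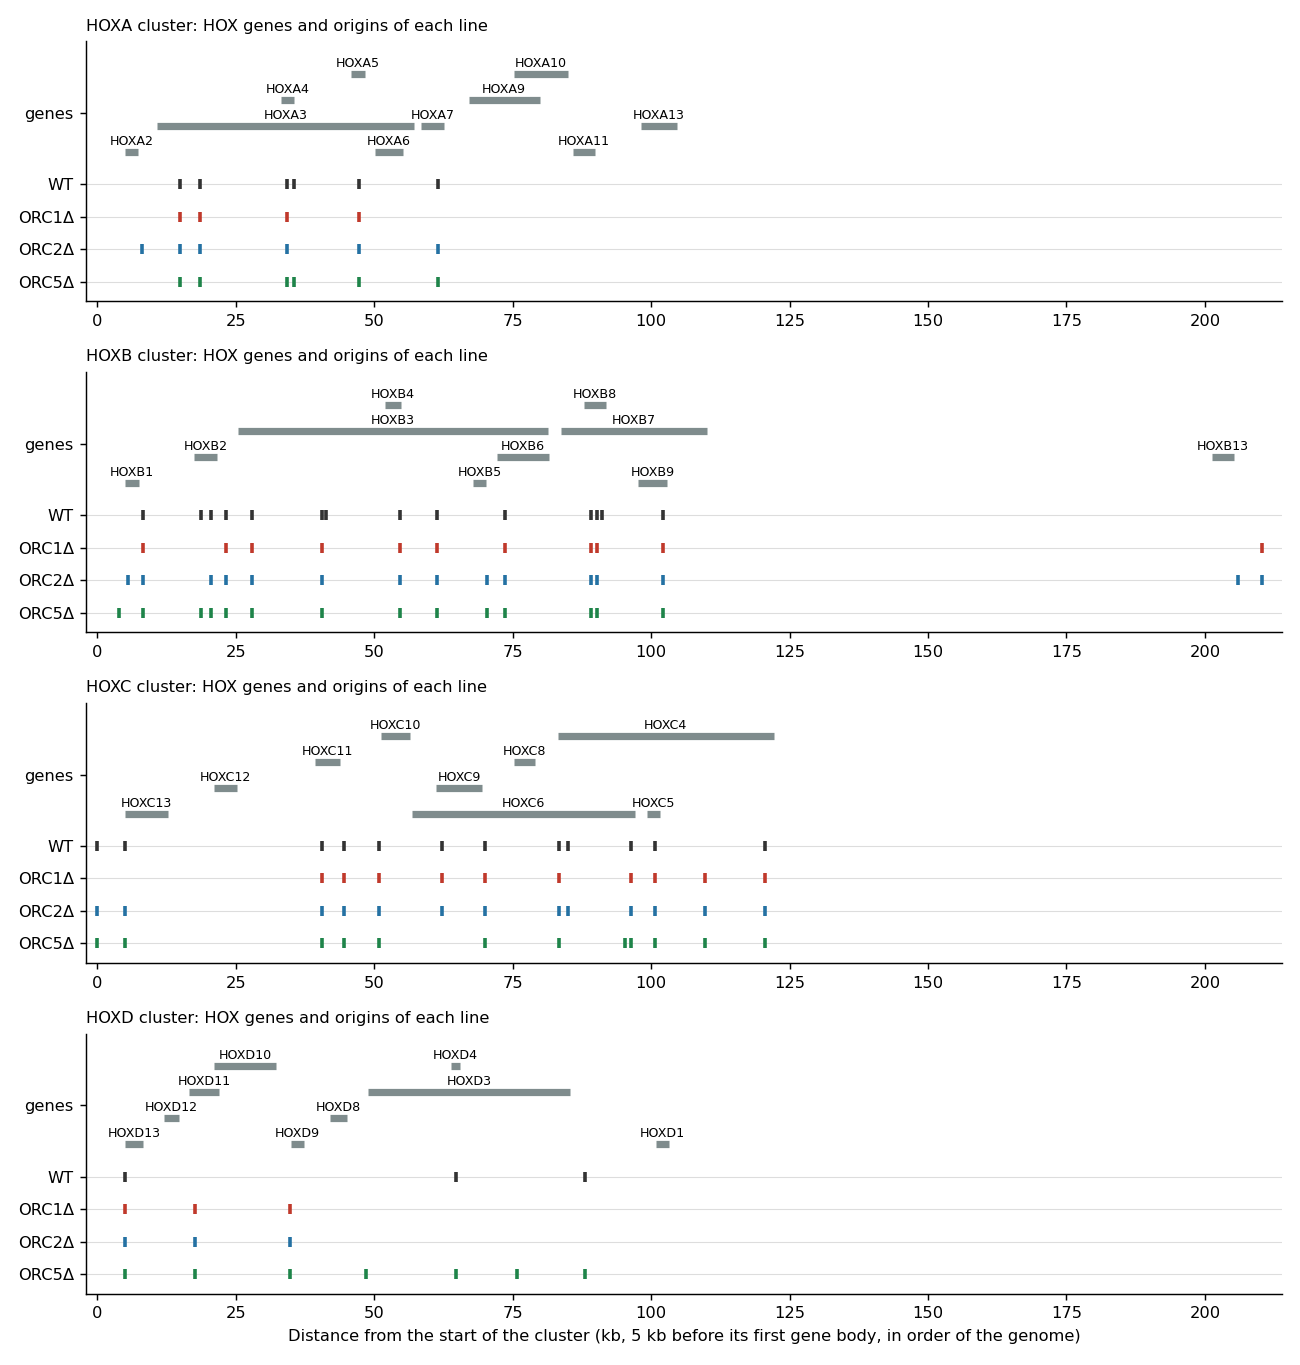
HOX origins in each of the 4 clusters, as distance in kb from the start of the cluster (x axis), with the bodies of the HOX genes in grey above and 1 row of ticks per line. Each tick is an origin on the list of that line, drawn at the midpoint of the joined origin. The posterior part of HOXA had no tick, and HOXD9 to HOXD12 had ticks in the 3 knockout rows and none in the WT row.

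HOXD9 to HOXD12 and HOXB13 held origins of knockout lines alone. No WT origin lay in the windows of HOXD9, HOXD10, HOXD11, and HOXD12, while each of these held at least 1 origin on all 3 knockout lists, from 2 joined origins that their windows share. HOXD13, the last posterior gene of the cluster, had 1 origin on all 4 lists. The HOXB13 window, around a posterior gene used as a marker of prostate epithelium, held 1 origin in *ORC1Δ* cells, 2 in *ORC2Δ* cells, and none in WT and *ORC5Δ* cells. In the other direction, the window of HOXC13, a gene of hair and nail formation, held 2 origins in each of WT, *ORC2Δ*, and *ORC5Δ* cells and none in *ORC1Δ* cells. HOXD3 and HOXD4 had 2 and 1 in WT, 4 and 1 in *ORC5Δ*, and none in *ORC1Δ* and *ORC2Δ* cells. HOXA2, a gene of hindbrain and branchial arch patterning, had 1 origin in *ORC2Δ* cells and none on the other lists.

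HOX origins recurred across the lines. Of the 47 joined origins, 23 were on all 4 lists (48.9%), against 31.9% of all joined origins: 4 of 7 in HOXA, 10 of 19 in HOXB, 8 of 14 in HOXC, and 1 of 7 in HOXD. Counted from the 36 WT HOX origins, 24 had a counterpart in all 3 knockout lines (66.7%, 95% Wilson interval 50.3 to 79.8), where the share over all WT origins was 60.4%, inside that interval. A counterpart was found for 25 in *ORC1Δ* cells (69.4%), 30 in *ORC2Δ* cells (83.3%), and 32 in *ORC5Δ* cells (88.9%), against 71.1%, 78.6%, and 82.6% of all WT origins. In HOXD, 1 of 3 WT origins, that at the HOXD13 start, was kept on all 3 lists.

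HOX origins differed in makeup from the average origin. In WT they overlapped a CpG island in 25 of 36 cases (69.4%, Wilson interval 53.1 to 82.0) against 17.2% of all WT origins, 22.1% of those in coding gene windows, and 33.7% of those in the flanks. Their median GC content was 58.8% against 54.8%, and 14 of 36 (38.9%) lay within 1 kb of a start site of a protein-coding gene (Wilson interval 24.8 to 55.1) against 12.9% of all WT origins, 19.3% of those in coding gene windows, and 29.3% of those in the flanks, the last of which lies inside that interval. Their median absolute GC skew, the excess of G over C or of C over G as a share of both, was 0.261 against 0.341 for all WT origins, so G and C were more evenly split between the strands. Median width was 540 bp against 525 bp. Among the 47 joined origins, 16 overlapped a coding exon of a canonical transcript, 7 lay in introns alone, and 17 lay between canonical transcripts, while 21 overlapped a noncoding gene of the clusters such as HOXB-AS3 or HOTAIR.

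HOX origins also had more reads than the average origin, as did origins at CpG islands. The HOX median was 178.5 WT reads in the *ORC1Δ* table, 180 in the *ORC2Δ* table, and 171 in the *ORC5Δ* table, against 114, 112, and 110 over all origins. Origins at CpG islands over the genome had medians of 171, 162, and 162 WT reads, so high reads were not particular to HOX origins. In both sets the origins on the WT list had higher medians than the full set in every table. The strongest HOX origin was HOXC10 −0.49 kb, which overlapped the 5′UTR of HOXC10, with 454, 458, and 455 WT reads in the 3 tables. In each of these the edges of an origin depend on the knockout list it was joined with. HOXB3 +5.31 kb followed with 411, 407, and 442, and HOXB4 +0.12 kb, at the start of HOXB4, a gene known from work on blood stem cells, with 407, 411, and 411. In the *ORC5Δ* table their Poisson intervals were 414 to 499, 402 to 485, and 372 to 453 reads and overlapped one another. The strongest origin of HOXD, HOXD4 +0.84 kb, had 230 WT reads in each table, and that of HOXA, HOXA5 +1.10 kb, had 197, 197, and 200. Strength was ranked by the highest WT value of any table: in the *ORC2Δ* table HOXA2 −11.17 kb had 198, though 104 in the others, and HOXB4 +0.12 kb stood above HOXB3 +5.31 kb. Most HOXD origins were weaker: HOXD11 −1.97 kb had 93, 114, and 106 WT reads and HOXD1 −12.93 kb had 96 in each table.

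Reads at HOX origins were lower in *ORC1Δ* than in WT cells. Reads were scaled to the total reads of the line in the table (RPM) and compared as a log2 fold, knockout over WT, with calls at 1.5-fold, the threshold of the study's methods. In *ORC1Δ* cells 5 of 40 HOX origins (12.5%) were down by 1.5-fold or more, where 3.95% of all 42162 origins were, and 0 were up, where 7.04% of all were. In *ORC2Δ* cells 0 of 43 were down and 0 up, where 3.58% and 4.66% of all origins were. In *ORC5Δ* cells 0 of 44 were down and 0 up, where 0.68% and 2.08% were. The 12.5% in *ORC1Δ* cells stood beside 12.6% of the 5862 origins at CpG islands in the same table. No test stands behind these counts, since each line has 1 value.

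Of the 5 origins down in *ORC1Δ* cells, 4 are shown by their most G-rich 100 bases outside UTRs.
HOXD13 −29 bp, chr2:176092441-176092540, plus strand: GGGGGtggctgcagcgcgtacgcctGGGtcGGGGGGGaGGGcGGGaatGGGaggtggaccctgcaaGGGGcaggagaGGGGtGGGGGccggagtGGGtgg
HOXB2 −6.30 kb, chr17:48551090-48551189, minus strand: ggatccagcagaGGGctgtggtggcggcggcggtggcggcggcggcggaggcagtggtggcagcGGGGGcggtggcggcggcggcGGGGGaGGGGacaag
HOXB8 +0.58 kb, chr17:48614553-48614652, plus strand: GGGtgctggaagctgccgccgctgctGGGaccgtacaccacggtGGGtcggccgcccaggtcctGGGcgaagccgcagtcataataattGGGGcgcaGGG
HOXB2 +2.96 kb, chr17:48542079-48542178, minus strand: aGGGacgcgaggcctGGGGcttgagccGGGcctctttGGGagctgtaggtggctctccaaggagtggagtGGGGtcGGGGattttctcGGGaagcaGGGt
The stretch of HOXB2 −6.30 kb, an origin that overlapped a coding exon of HOXB3, held 4 G runs among repeats of ggc and ggt. The other 3 stretches held 6 to 10. The stretch of HOXB8 +0.58 kb had the lowest G4Hunter mean of the 14 stretches read in this way, 0.41, and that of HOXD13 had 1.53.

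The largest fall was at the start of HOXD13, the last gene of its cluster and a gene of digit formation. This origin (chr2:176092325-176093058, midpoint 29 bp upstream of the start) had 209 WT reads in each table, and 118 in *ORC1Δ* cells, 202 in *ORC2Δ* cells, and 209 in *ORC5Δ* cells. After scaling it stood at 32.6 RPM in WT and 17.6 in *ORC1Δ* cells, a log2 fold of −0.89 (−1.22 to −0.55). In *ORC2Δ* and *ORC5Δ* cells its log2 folds were −0.28 (−0.57 to 0.0032) and −0.31 (−0.59 to −0.03). It was on all 4 lists, so its loss of reads did not take it off the *ORC1Δ* list. Its GC content, 74.0%, was the highest of the 47.

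The origin at the HOXC13 start (chr12:53938488-53939063) had 115 WT and 66 *ORC1Δ* reads, a log2 fold of −0.86 (−1.32 to −0.41). In *ORC2Δ* cells it had 152 against 135 reads in WT (−0.06, −0.41 to 0.28), and in *ORC5Δ* cells 163 against 136 (−0.05, −0.39 to 0.29). The reads were thus low in *ORC1Δ* cells and near the WT level in the other knockout lines. HOXC13 was also the gene whose 2 origins were absent from the *ORC1Δ* list.

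Around HOXB2, a hindbrain patterning gene, a pair of origins were down in *ORC1Δ* cells and lay just short of the threshold in *ORC2Δ* cells. HOXB2 −6.30 kb (chr17:48551072-48551740) had 276 WT and 175 *ORC1Δ* reads (−0.72, −0.999 to −0.44), 276 and 221 in *ORC2Δ* (−0.55, −0.82 to −0.29), and 277 and 285 in *ORC5Δ* cells (−0.27, −0.51 to −0.02). HOXB2 +2.96 kb (chr17:48541832-48542466) had 213 WT and 143 *ORC1Δ* reads (−0.64, −0.95 to −0.32), 213 and 172 in *ORC2Δ* (−0.54, −0.84 to −0.25), and 213 and 219 in *ORC5Δ* cells (−0.27, −0.55 to 0.01). Between them lay 2 others. HOXB2 +1.07 kb, which overlapped a coding exon of HOXB2, had 291 WT reads in each table and log2 folds of −0.39 (−0.65 to −0.14), −0.11 (−0.35 to 0.12), and −0.15 (−0.38 to 0.08). The next was HOXB2 −1.62 kb, the HOXB origin with the highest mean fold that had values in all 3 tables, at −0.09, −0.08, and 0.06 with intervals that all spanned 0. Its *ORC1Δ* interval (−0.38 to 0.20) did not overlap that of HOXB2 −6.30 kb and overlapped that of HOXB2 +2.96 kb.

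HOXB8 +0.58 kb (chr17:48614524-48614897), over the start of the HOXB8 coding sequence, was the fifth. It had 171 WT reads and 110 in *ORC1Δ* (−0.70, −1.06 to −0.34), 163 in *ORC2Δ* (−0.30, −0.62 to 0.02), and 165 in *ORC5Δ* cells (−0.36, −0.68 to −0.04). It was also 1 of 2 HOX origins on the WT list alone (4.26% of the 47, against 4.34% of all joined origins). The other was HOXB4 +13.57 kb, in an intron of HOXB3, with 171 WT reads in each table and 125, 135, and 153 in *ORC1Δ* cells, *ORC2Δ*, and *ORC5Δ* cells. Its log2 folds were −0.51 (−0.86 to −0.17), −0.57 (−0.91 to −0.24), and −0.47 (−0.79 to −0.15), and their mean was the lowest in HOXB. The origins on the WT list alone were chosen by that list, so their lower knockout reads are a description.

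**Figure D3:**
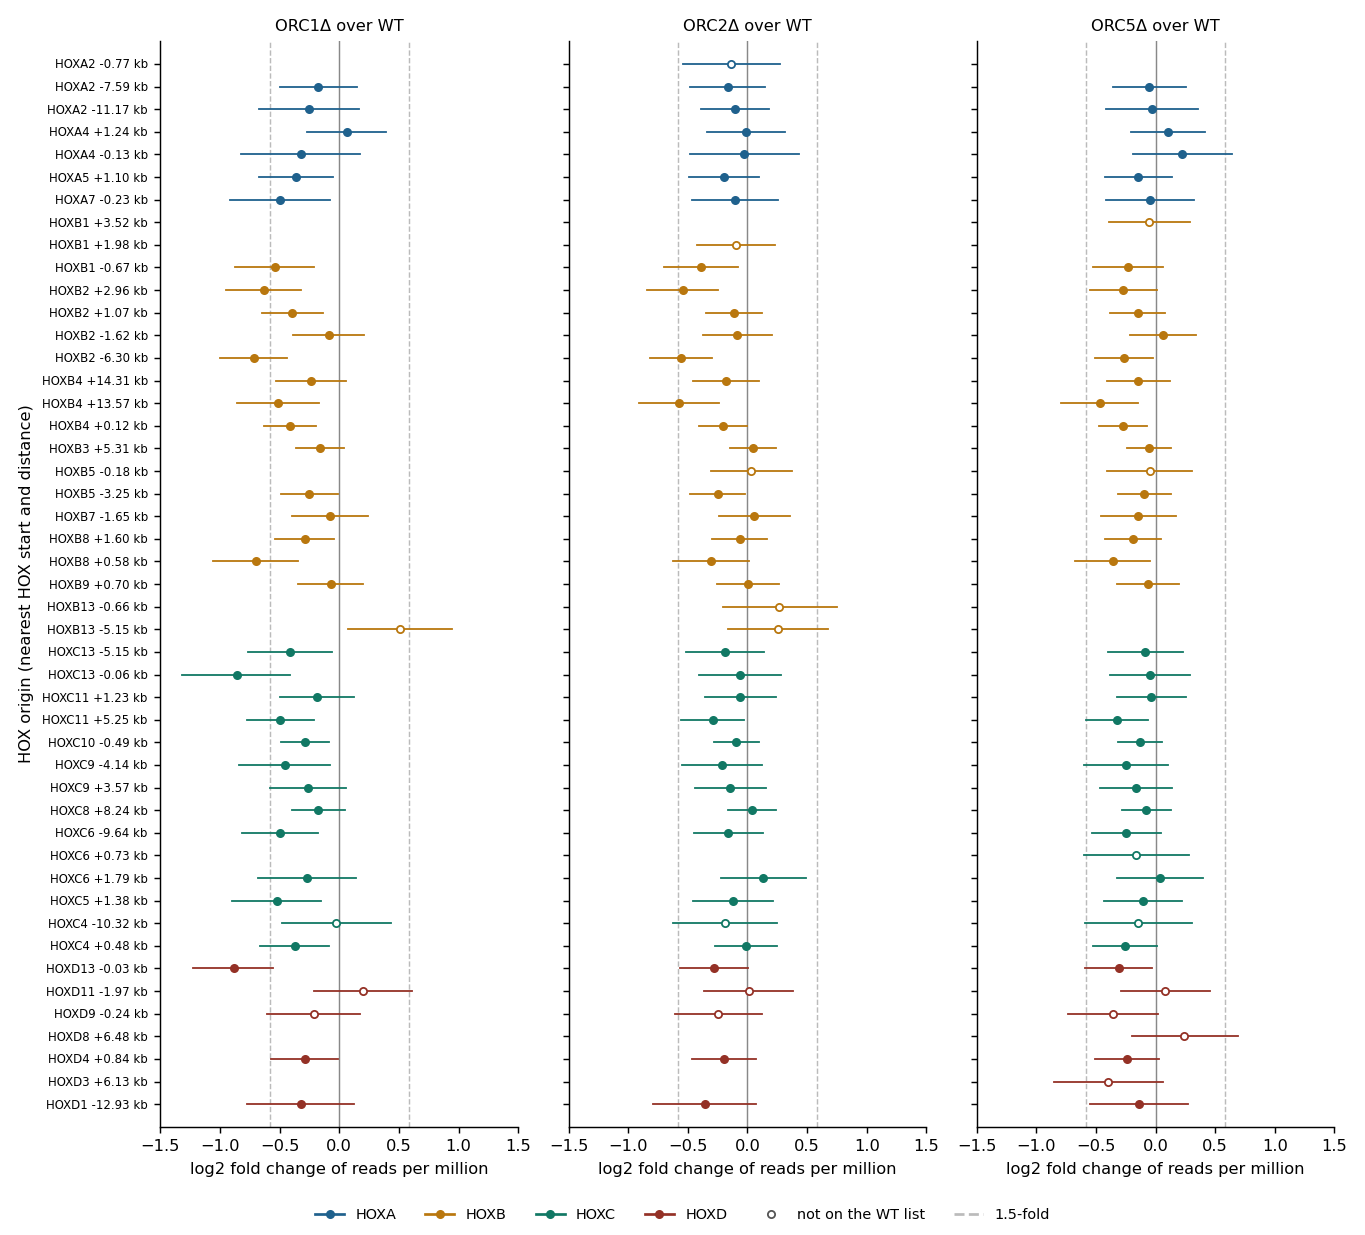
Log2 fold of RPM, knockout over WT (x axis), of each HOX origin (y axis, in order along each cluster, named by nearest HOX start and distance), in 3 panels for the 3 knockout lines. Points are log2 folds from 1 value per line, bars are 95% counting intervals, open points are origins not on the WT list, colours mark the cluster, and dashed lines mark 1.5-fold. In *ORC1Δ* cells 5 points lay beyond the lower dashed line and none beyond the upper one in any panel.

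The 3 HOX origins found on all 3 knockout lists but not in WT were 6.38% of the 47, beside 7.29% of all joined origins. Their sequences and that of HOXB4 +13.57 kb are shown here.
HOXB4 +13.57 kb, chr17:48564754-48564853, plus strand: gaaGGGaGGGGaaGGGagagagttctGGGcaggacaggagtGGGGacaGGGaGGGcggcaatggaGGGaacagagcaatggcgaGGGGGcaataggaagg
HOXC4 −10.32 kb, chr12:54043514-54043613, minus strand: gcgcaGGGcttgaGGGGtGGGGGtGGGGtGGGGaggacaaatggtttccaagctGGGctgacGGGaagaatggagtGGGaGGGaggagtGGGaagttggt
HOXD11 −1.97 kb, chr2:176105347-176105446, plus strand: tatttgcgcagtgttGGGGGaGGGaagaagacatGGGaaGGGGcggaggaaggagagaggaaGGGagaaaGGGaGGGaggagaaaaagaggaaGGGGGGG
HOXD9 −0.24 kb, chr2:176122212-176122311, plus strand: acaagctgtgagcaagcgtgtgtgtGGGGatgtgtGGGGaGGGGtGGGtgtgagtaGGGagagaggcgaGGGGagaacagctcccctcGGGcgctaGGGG
All 4 held 8 to 10 G runs in 100 bases. HOXC4 −10.32 kb had 82, 89, and 82 WT reads in the 3 tables and 84, 92, and 92 in *ORC1Δ* cells, *ORC2Δ*, and *ORC5Δ* cells, with log2 folds of −0.03, −0.19, and −0.14. HOXD11 −1.97 kb, in the body of a gene of limb and kidney patterning, had 93, 114, and 106 WT and 111, 135, and 139 knockout reads, with log2 folds of 0.19, 0.01, and 0.08. HOXD9 −0.24 kb, which overlapped the HOXD9 5′UTR, had 118, 129, and 121 WT and 106, 128, and 117 knockout reads, with log2 folds of −0.22, −0.24, and −0.36. The counting interval of each of these 9 values spanned 0. These origins were therefore new on the lists of the knockout lines without a rise in their RPM beyond counting error.

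The reverse was seen at HOXD4 +0.84 kb, which was on the WT and *ORC5Δ* lists alone. Its 230 WT reads stood beside 196 in *ORC1Δ* cells, 236 in *ORC2Δ* cells, and 241 in *ORC5Δ* cells, with log2 folds of −0.29 (−0.57 to −0.01), −0.20 (−0.46 to 0.07), and −0.24 (−0.51 to 0.02). The 3 intervals overlapped, in the line that kept it on the list and in the ones that did not. Presence on a list and read change are different measurements in these clusters, and the 7 HOXD origins of *ORC5Δ* cells against 3 in WT came with a summed HOXD log2 fold of −0.19 (−0.32 to −0.06).

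Most HOX origins lay on the same side of 0 in every knockout line. In *ORC1Δ* cells 37 of 40 had a log2 fold below 0, where 51.6% of all origins did, and for 21 of 40 the interval lay wholly below 0, where 14.5% of all did. In *ORC2Δ* cells 34 of 43 were below 0 (56% of all) and 7 intervals lay wholly below (11.2% of all). In *ORC5Δ* cells 38 of 44 were below 0 (50.6% of all) and 6 intervals lay wholly below (4.76% of all). HOX origins had more reads than average, which narrows their intervals. Of CpG island origins on the WT list, 86.5%, 64.0%, and 66.1% were below 0 in the 3 tables. For WT-listed HOX origins the shares were 97.2%, 85.7%, and 88.9%. Intervals wholly below 0 made up 44.7%, 16.8%, and 9.69% of the former and 58.3%, 20%, and 16.7% of the latter. Over the 38 joined origins with a value in all 3 tables, 29 were below 0 in all 3 and 31 had their lowest value in *ORC1Δ* cells. No share over all origins stands beside these 2 counts. Among all origins, those around 58% GC, near the HOX median, had median log2 folds of −0.11, −0.06, and −0.01 in the 3 tables. Since WT reads are shared by the tables, a low or high WT value enters all 3 folds.

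A single HOX origin had an interval wholly above 0. HOXB13 −5.15 kb, at the outer edge of the HOXB13 window, had 75 WT and 111 *ORC1Δ* reads, a log2 fold of 0.51 (0.07 to 0.95), where 14.6% of all origins had an interval above 0. In *ORC2Δ* and *ORC5Δ* cells 0 of 43 and 0 of 44 HOX origins did, beside 10.1% and 5.84% of all origins. In *ORC2Δ* cells it had 118 against 84 reads (0.26, −0.16 to 0.68), and it was on neither the WT nor the *ORC5Δ* list. Its GC content, 43.0%, was the lowest of the 47. The HOXA and HOXC origins with the highest mean folds were near 0. HOXA4 +1.24 kb had log2 folds of 0.06, −0.01, and 0.10, from 146 to 152 WT reads. HOXC6 +1.79 kb had −0.27, 0.13, and 0.04 from 110 to 121 WT reads, and all 6 intervals spanned 0.

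The lowest mean folds in HOXA and HOXC were those of HOXA5 +1.10 kb and HOXC11 +5.25 kb. HOXA5 +1.10 kb had 160, 202, and 224 reads in *ORC1Δ* cells, *ORC2Δ*, and *ORC5Δ* cells, with log2 folds of −0.36 (−0.67 to −0.05), −0.20 (−0.49 to 0.09), and −0.15 (−0.43 to 0.14). HOXC11 +5.25 kb, downstream of a gene of limb and hindgut patterning, had 250 WT reads in each table and 185, 240, and 247 knockout reads, with log2 folds of −0.49 (−0.78 to −0.21), −0.29 (−0.55 to −0.03), and −0.33 (−0.59 to −0.07). It was 1 of 4 HOX origins whose interval lay below 0 in all 3 tables, a count with no share over all origins beside it. The strong origin HOXC10 −0.49 kb went from 454 to 388 reads in *ORC1Δ* cells (−0.29, −0.49 to −0.09) and to 505 and 515 in *ORC2Δ* and *ORC5Δ* cells (−0.09, −0.28 to 0.09, and −0.13, −0.32 to 0.05). HOXB3 +5.31 kb had log2 folds of −0.16, 0.04, and −0.06, whose intervals all spanned 0.

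Over the whole set, the median log2 fold of HOX origins was −0.31 (order-statistic interval −0.41 to −0.25) in *ORC1Δ* cells, −0.12 (−0.19 to −0.06) in *ORC2Δ* cells, and −0.14 (−0.16 to −0.06) in *ORC5Δ* cells. These intervals treat neighbouring origins as independent and reflect the spread among origins. They hold no error between replicates, so they do not measure the error of a knockout against WT. The medians over all origins were −0.01, −0.04, and −0.0032, and over the flanks −0.10, −0.05, and −0.03. Summed over the 4 clusters, HOX reads went from 7737 in WT to 6465 in *ORC1Δ* (1206 to 966 RPM), a log2 fold of −0.32 (−0.37 to −0.27), where the flanks had −0.12 (−0.15 to −0.09). The summed values were −0.14 (−0.18 to −0.10) in *ORC2Δ* cells beside −0.05 in the flanks, and −0.15 (−0.19 to −0.10) in *ORC5Δ* cells beside −0.04. For these sums the HOX and flank intervals, which cover counting error only, did not overlap in any of the 3 tables. The 2 sets differed in median GC content, at 58.8% for HOX and 52.8% for flank origins in the *ORC1Δ* table. Cluster by cluster, they overlapped for HOXB, HOXC, and HOXD in *ORC2Δ* cells and for HOXA, HOXB, and HOXD in *ORC5Δ* cells. HOXA to HOXD were at −0.12, −0.16, −0.09, and −0.21 in *ORC2Δ* cells, with flanks at 0.20, −0.15, 0.0062, and −0.27. In *ORC5Δ* cells they were at −0.01, −0.17, −0.15, and −0.19, with flanks at 0.12, −0.10, −0.01, and −0.06.

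By cluster, the *ORC1Δ* log2 fold of summed reads was −0.24 in HOXA (−0.38 to −0.09), −0.32 in HOXB (−0.39 to −0.25), −0.34 in HOXC (−0.43 to −0.26), and −0.35 in HOXD (−0.51 to −0.19). These 4 intervals overlapped one another. The flanks were at 0.23, −0.18, −0.12, and 0.09, so HOXA and its flanks lay on opposite sides of 0 beyond counting error. The HOXA flank sum came from 10 origins, with a median log2 fold of 0.13 and a highest value of 1.84. Median GC content was 64.1% in HOXA origins and 49.2% in those of its flanks. By class, the *ORC1Δ* medians were −0.32 for anterior, −0.31 for central, and −0.27 for posterior origins, and the 3 classes gave −0.14, −0.12, and −0.09 in *ORC2Δ* and −0.14, −0.14, and −0.13 in *ORC5Δ* cells. The 12 origins within 1 kb of a HOX start had a median of −0.39 in *ORC1Δ* cells and 3 of the 5 calls, beside −0.26 for the 27 farther away. In *ORC2Δ* cells the order was turned, at −0.10 for 15 near and −0.13 for 28 farther origins, and in *ORC5Δ* cells the medians were −0.20 for 14 and −0.14 for 29.

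GC content moved with the read change across all origins, most of all in *ORC1Δ* cells. In steps of 4% GC, origins around 42% GC had a median log2 fold of 0.25 in *ORC1Δ* cells, and those around 66% one of −0.26. Origins at CpG islands had medians of −0.25, −0.05, and −0.04 in the 3 tables. When the running median of all origins of like GC content was taken off, the HOX medians became −0.20, −0.06, and −0.13, with 33 of 40, 31 of 43, and 35 of 44 below 0 (50% of all in each table), and 3 of the 5 calls in *ORC1Δ* cells dropped below 1.5-fold: HOXD13 (−0.50), HOXB2 −6.30 kb (−0.58), and HOXB2 +2.96 kb (−0.45). After the correction 3 HOX origins were past it in *ORC1Δ* cells, HOXC13 (−0.63), HOXB8 +0.58 kb (−0.61), and HOXB1 −0.67 kb (−0.68), which has 48.0% GC and 184 WT and 132 *ORC1Δ* reads (−0.54 before the correction). These 3 were 7.5% of the 40 HOX origins, beside 2.86% of all origins and 2.71% of CpG island origins after the same correction, where the HOX and CpG island shares had been 12.5% and 12.6% before it. The flank medians after this correction were −0.067, −0.015, and −0.023 in the 3 tables. Membership of the WT list also moved with the value: over all origins on the WT list the medians were −0.12, −0.10, and −0.06, over WT-listed origins at CpG islands −0.27, −0.07, and −0.06, and over WT-listed HOX origins −0.33, −0.14, and −0.14.

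**Figure D4:**
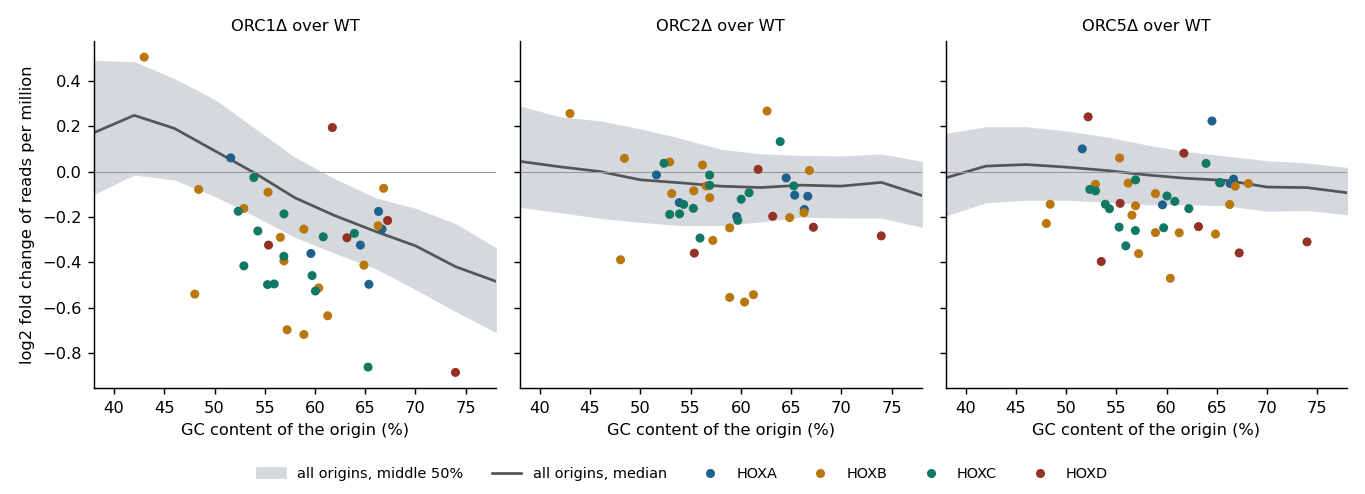
Log2 fold of RPM, knockout over WT (y axis), against GC content of the origin in % (x axis), for the 3 knockout lines. Points are HOX origins coloured by cluster, the line is the median of all origins in steps of 4% GC, and the grey band holds the middle 50% of them. In *ORC1Δ* cells the median of all origins fell from 0.25 at 42% to −0.42 at 74%, and most HOX points lay below the line.

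Other lists of genes were described by their counts. Homeobox genes linked to HOX clusters or of the ParaHox group (15 genes, among them EVX1, EN2, PDX1, and CDX2) had an origin in the window of 6 in WT, 5 in *ORC1Δ* cells, 6 in *ORC2Δ* cells, and 10 in *ORC5Δ* cells, with 3.01, 2.46, 4.10, and 5.47 origins per 100 kb. Their origins had median log2 folds of −0.23 (14 origins), −0.12 (18), and 0.04 (21). Of 22 coding genes of the flanks, 13, 11, 12, and 16 had an origin in the window. Of 24 noncoding genes of the clusters, 17, 14, 16, and 16 did, and the window of HOXB-AS3 held 7 origins in WT and that of HOTTIP, beside HOXA13, none in any line.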

How the data were processed

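SNS-seq of 4 HCT116 p53−/− lines was used, with 2 replicates of each. Per the study's methods, the authors took as origins the MACS2 peaks that both replicates of a line share. Trim Galore 0.6.4, Bowtie, MACS2, bedtools, and GRCh38 are named in the submitters' processing notes. The deposited lists hold nothing but positions, a start and an end per origin. Each deposited table holds read counts per joined origin of WT and a knockout line, unnormalized and with replicates merged by the authors. The counting tool is not given in the sources used here.

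Origins on the assembled chromosomes were joined across the 4 lists where they overlapped by 1 bp or more. Counts were scaled to the total reads of a line in a table (RPM), with no filter and no pseudocount. Log2 folds have 95% Clopper-Pearson intervals, shares Wilson intervals, and medians binomial order-statistic intervals. The GC correction takes off the median over 2001 origins ordered by GC content. CpG islands (at least 200 bp, 50% GC, and an observed over expected CpG of 0.6) and G4Hunter scores were computed from hg38. Flanks were 500 kb on either side of a span, without origins that touch the span. Genes came from GENCODE release 44, and HOX start sites from canonical transcripts. Distances to a start site of any protein-coding gene used all protein-coding transcripts of the GENCODE basic set.

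Origins named with values were those past 1.5-fold in a table, in each cluster the one with the most WT reads and those with the highest and lowest mean fold, those on the WT list alone, those on all 3 knockout lists alone, and others singled out in the text, such as HOXB13 −5.15 kb, HOXB4 +0.12 kb, and HOXD1 −12.93 kb, which were chosen after their values were seen. Members and lists were chosen with earlier results of these data known. The sequences of a pair of named HOXC origins are not reported here. Of 23 listed flank genes 22 and of 25 noncoding genes 24 were found by name. Alternatives covered the window, the overlap, the scaling (edgeR TMM, median of ratios, and reads in shared origins), the threshold, a filter, GC content, and the flanks. On simulated Poisson counts, 200 of 200 origins changed by 1.5 on the log2 scale were called in each table, and 0.588% to 0.717% of unchanged ones. The changed origins were drawn from those with more WT reads, and their change was larger than any HOX log2 fold. No spread between replicates was simulated, so these shares do not measure the error of the HOX calls. R 4.3.3 with edgeR 4.0.16 and Python 3.11.15 were used, the latter with pysam 0.24.0, numba 0.67.0, scipy 1.17.1, pandas 2.3.3, numpy 2.4.6, and matplotlib 3.10.9.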

Additional observations from a re-analysis of the deposited data

How the results depend on the processing

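No paired analysis was possible because the tables merge the replicates of a line and their columns carry no replicate number, and for the same reason no replicate could be left out. Of 145 alternative values of the main results, 135 stayed within 1.5 times the count or within the interval of the value reported. Many of these were counts of 0 that stayed at 0. Only log2 folds could change sign, and none of them did. The 5 HOX origins down in *ORC1Δ* cells became 3 after the GC correction, 0 at 2-fold (0.339% of all origins), and 20 (50%) at a lower log2 threshold of 0.32, past which 16.8% of all and 39.4% of CpG island origins were down, and where 1 was up (18.8% of all). At that threshold, 5 origins were down in *ORC2Δ* (11.6%, beside 14.7% of all) and 5 in *ORC5Δ* cells (11.4%, beside 6.42%), where 0 were at 1.5-fold. The median log2 fold in *ORC1Δ* cells went from −0.31 to −0.20 with the GC correction. The flank log2 fold in *ORC1Δ* cells went from −0.12 to −0.068 when scaled to reads in origins shared by all 4 lines, and that in *ORC2Δ* cells from −0.05 to −0.0093 with TMM factors and to −0.0085 with median-of-ratios factors. The causes were not tested, except that another fold threshold changes a count by its construction. With TMM factors, 37, 31, and 38 HOX origins were below 0 in the 3 tables. Of the log2 folds of the 5 origins down in *ORC1Δ* cells, 17 of 20 alternative values stayed past 1.5-fold, and the other 3 were those after the GC correction. Depth limits single origins, which had 65 to 458 WT reads each: changes inside their counting intervals were not detectable.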
